A study of Mus musculus with 97 samples.

Results

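The genes described here are the Hox genes of the 4 mammalian clusters, measured in whole colon of C57BL6/J wild-type mice aged 8 to 12 weeks. Members were every row of the expression table whose symbol is Hox followed by a cluster letter from a to d and a paralog number. They came to 34 of 20457 genes, and all 97 libraries of the series were used. Treated mice were given 1 of 4 antibiotics (ampicillin, vancomycin, neomycin or metronidazole) or all 4 as a mix, at 2.5 mg in 100 µl. Control mice were given 100 µl of the carrier, phosphate buffered saline (PBS), alone. The routes were oral gavage (PO), intraperitoneal (IP) and intravenous (IV) injection. Doses fell 2 times a day for 3 days and 1 more time on day 4, and colon was collected 4 hours later. Crossing 6 treatments with 3 routes gave 18 groups. Of these, 11 held 6 libraries, 3 held 5 (Neomycin-IV, Vancomycin-IV and PBS-IV) and 4 held 4 (Metronidazole-IP, Vancomycin-IP, PBS-IP and Metronidazole-IV). All groups share the strain, genotype and tissue. Values are TPM (transcript abundance scaled to a fixed library total), a level per length of transcript, so levels can be compared between genes.

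Hox genes encode homeodomain transcription factors that give cells their position along the head-to-tail axis. They lie in 4 clusters, Hoxa, Hoxb, Hoxc and Hoxd. Paralog numbers run from the end of the cluster used early and toward the head to the end used late and toward the tail. Adult gut keeps a record of this order: central members mark more anterior stretches, and the genes numbered 13 mark the hindgut and its distal end. Mesenchyme, muscle, enteric neurons and epithelium each carry part of this code. In the tables at hand the Hoxa cluster is on chromosome 6, Hoxb on 11, Hoxc on 15 and Hoxd on 2.

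RefSeq promoter sequences (build GRCm38.p6, 250 bases before the start) were at hand for 21 of the 34 members, with 23 promoters in all. The 4 shown belong to members whose levels varied widely between libraries, as described below: a pair of genes numbered 13, and 1 central gene each of Hoxb and Hoxd. They lie at chr2:74667975-74668224 (Hoxd13, plus strand), chr6:52260881-52261130 (Hoxa13, minus strand), chr11:96281655-96281904 (Hoxb8, plus strand) and chr2:74721728-74721977 (Hoxd4, plus strand). Capitals mark TTTAT, or its reverse complement ATAAA, the core recognised by caudal-type (Cdx) proteins, and TCGTAAA, or TTTACGA, a site of posterior Hox proteins. Each is written 5′ to 3′ on the strand of its gene.
Hoxd13: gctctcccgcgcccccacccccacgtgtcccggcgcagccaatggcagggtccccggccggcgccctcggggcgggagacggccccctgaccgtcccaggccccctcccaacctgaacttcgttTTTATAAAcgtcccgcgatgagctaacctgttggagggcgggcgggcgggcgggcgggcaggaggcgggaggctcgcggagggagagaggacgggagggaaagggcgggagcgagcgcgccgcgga
Hoxa13: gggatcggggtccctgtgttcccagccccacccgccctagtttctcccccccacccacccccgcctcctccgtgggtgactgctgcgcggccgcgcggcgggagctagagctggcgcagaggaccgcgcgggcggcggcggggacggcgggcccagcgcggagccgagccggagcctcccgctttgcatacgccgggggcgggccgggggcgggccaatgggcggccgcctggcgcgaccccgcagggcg
Hoxb8: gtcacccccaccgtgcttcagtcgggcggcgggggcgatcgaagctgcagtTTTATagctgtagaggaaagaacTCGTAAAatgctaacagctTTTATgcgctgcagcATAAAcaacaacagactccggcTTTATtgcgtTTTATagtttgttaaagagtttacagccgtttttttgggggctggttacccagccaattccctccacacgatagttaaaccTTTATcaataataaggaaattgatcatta
Hoxd4: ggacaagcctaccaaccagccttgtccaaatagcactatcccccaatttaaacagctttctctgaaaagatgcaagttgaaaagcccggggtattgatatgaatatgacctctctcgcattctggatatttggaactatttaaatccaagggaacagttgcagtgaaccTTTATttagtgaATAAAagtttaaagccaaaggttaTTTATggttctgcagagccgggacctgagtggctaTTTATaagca
The Hoxb8 window held 6 TTTAT matches and the 1 TCGTAAA match found among the 21 genes. Hoxd4 held 4 TTTAT matches, Hoxd13 held 2 and Hoxa13 none. TTTAT on either strand was present in 9 of the 23 promoters of members and in 37.3% of 32851 promoters of the same length in the table. TCGTAAA was present in 0.478% of those promoters. CG pairs numbered 35 in the Hoxa13 window, 31 in Hoxd13, 12 in Hoxb8 and 3 in Hoxd4, against a median of 6 over all promoters and 12 over those of members. A match of letters is a description, not a binding site, and the expression data do not test it.

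The files give no read counts, so depth per library is unknown. Between 18247 and 19884 genes were above 0 in each library. All 16 colon epithelium markers were above 0 in every library, with a summed level of 1771 to 41271 TPM, and the summed level of 18 smooth muscle genes ran from 5085 to 95800 TPM. The summed levels of epithelial and smooth muscle markers therefore differed widely between libraries. Whether the proportion of layers in the tissue differed was not tested. A higher level in such bulk tissue cannot be told apart from more cells of a type that express the gene. The labels name the tissue only as whole colon and give no position along it. Nothing in them ties replicates to separate mice, so the p-values rest on the spread among libraries, part of which may be technical. Summed squamous epithelium markers, a check for anal or skin tissue, stayed between 6.49 and 20.2 TPM. Summed skeletal muscle genes ran from 19.1 to 247 TPM. Of 8 genes listed for male accessory glands only 1 is measured, and it ran from 2.86 to 1077 TPM (median 50.5). A single gene cannot show whether such tissue was present.

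Of the 34 members, 33 passed the filter for low values (1 TPM or more in at least 4 libraries). Hoxb1, the member at the anterior end of its cluster, did not pass and reached 0.417 TPM at most. By median level the leading members were Hoxa5 at 65.7 TPM, Hoxa7 at 54.6, Hoxa10 at 51.9 and Hoxa9 at 47.3. Hoxa5 is known for patterning gut and lung mesenchyme, and Hoxa9 and Hoxa10 belong to the posterior members of their cluster. Across clusters, medians reached 65.7 TPM in Hoxa and ran from 2.27 to 43.1 in tested Hoxb genes, from 0.653 to 14.2 in Hoxd and from 0.110 to 1.78 in Hoxc. The colon thus held little Hoxc message: Hoxc4 had the highest median of its cluster and Hoxc6 the lowest. Hoxc10 to Hoxc13 and Hoxd1 were not analysed here. RefSeq gene models overlap for Hoxa3 with Hoxa4, Hoxa5 and Hoxa6, for Hoxb3 with Hoxb4, for Hoxd3 with Hoxd4 and for Hoxd10 with Hoxd11. Reads may have been split between them uncertainly.

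**Figure D1:**
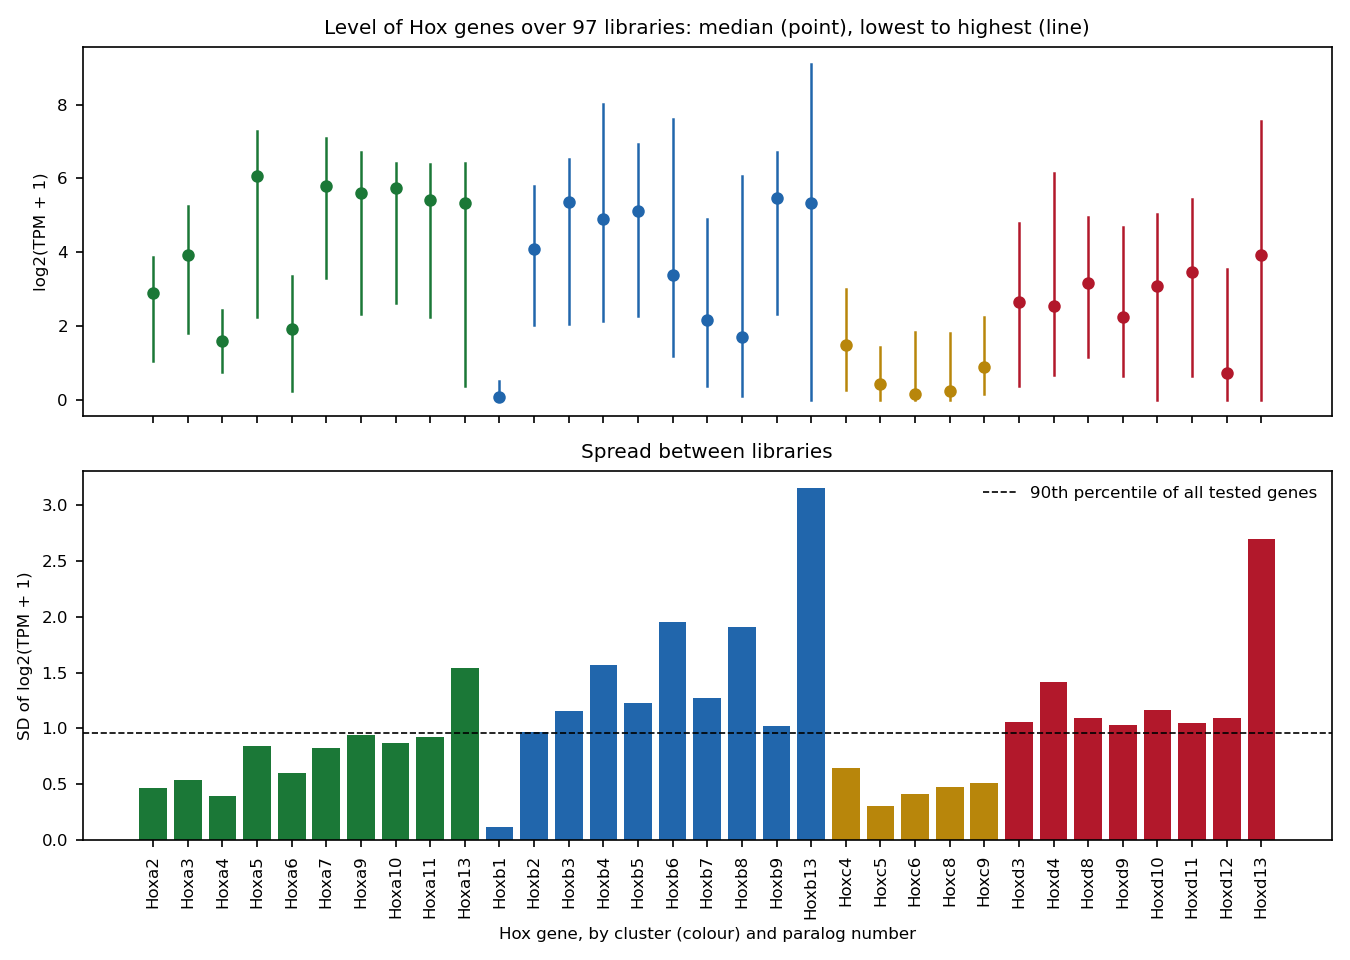
Top, the level of Hox genes as log2(TPM + 1), by cluster (colour) and paralog number, with the median of the 97 libraries as a point and the lowest to highest library as a line. Bottom, the SD of the same values as bars, with a dashed line at 0.958, the 90th percentile of all tested genes. The bars of all 9 tested Hoxb genes, all 8 Hoxd genes and Hoxa13 pass the line.

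Variation between libraries was concentrated in Hoxb and Hoxd. On the log2(TPM + 1) scale, 18 of the 33 tested members had a standard deviation (SD) above 0.958, the 90th percentile of the 17083 genes tested, of which 1709 lie above it by construction. They were all 9 tested Hoxb genes, all 8 Hoxd genes and 1 of 11 Hoxa genes, Hoxa13. None of the 5 Hoxc genes was among them. The median SD was 1.27 in Hoxb, 1.09 in Hoxd, 0.82 in Hoxa and 0.48 in Hoxc, against 0.46 over all genes. By paralog number, 3 of 6 anterior members (1 to 3), 7 of 15 central members (4 to 8) and 8 of 12 posterior members (9 to 13) were above it. On this scale cluster membership thus separated members above and below that line more fully than paralog number did. The scale understates changes of low genes, and the Hoxc medians were only 0.110 to 1.78 TPM. The low SD of the Hoxc genes therefore does not show them to be steady.

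Hoxb13, which marks the distal hindgut and the prostate, had the largest SD, 3.15. Its level was 0 at the lowest, 38.9 TPM at the median and 549 TPM at the highest, and it was listed at 0 in 4 libraries. Hoxd13, a gene of the hindgut, anal sphincter and limb, followed with an SD of 2.70 and levels of 0, 14.2 and 188 TPM, listed at 0 in 7 libraries. Both genes therefore went from undetected to abundant among tissues given the same name. Hoxa13, the third gene of that number in the table, had an SD of 1.54 and levels of 0.302, 39.0 and 84.0 TPM. It was never listed at 0, and 82 of 97 libraries held it at 12.7 TPM or more.

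The other wide ranges belonged to central genes. Hoxb6 (SD 1.95) ran from 1.26 over a median of 9.32 to 195 TPM, and Hoxb8 (SD 1.91) from 0.0744 over 2.27 to 65.2 TPM. Hoxb4 (SD 1.57) ran from 3.36 over 29.1 to 257 TPM. Hoxd4 (SD 1.41) ran from 0.581 over 4.81 to 69.6 TPM, and Hoxb7 (SD 1.27) from 0.282 over 3.44 to 28.9 TPM. For Hoxb6, Hoxb7, Hoxb8 and Hoxd4 the median lay far nearer to the lowest library than to the highest, so that a minority of libraries held the high levels. Among members with a median of at least 5 TPM, the steadiest were Hoxa2 (SD 0.47, levels of 1.08, 6.48 and 13.7 TPM) and Hoxa3 (SD 0.54, levels of 2.49, 14.1 and 37.3 TPM). Hoxd12, next to Hoxd13, was listed at 0 in 33 libraries and reached 10.7 TPM.

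In 5 members the libraries fell into 2 sets, defined, after the values were seen, as a gap of at least 0.5 on the log2 scale with at least 6 libraries on each side. The widest gap was that of Hoxa13 (ENSMUSG00000038203): 15 libraries lay at or below 3.62 TPM and 82 at or above 12.7 TPM, 1.56 apart. For Hoxb6 (ENSMUSG00000000690), 70 libraries lay at or below 19.7 TPM and 27 at or above 37.4 TPM, a gap of 0.89. For Hoxb8 (ENSMUSG00000056648), 69 lay at or below 5.92 TPM and 28 at or above 11.6 TPM, a gap of 0.87. These gaps leave a stretch of levels that no library held. Hoxd13 (ENSMUSG00000001819) split into 43 libraries at or below 5.98 TPM and 54 at or above 11.5 TPM (gap 0.84). Hoxb13 (ENSMUSG00000049604) split into 38 at or below 11.3 TPM and 59 at or above 20.5 TPM (gap 0.80). These gaps are a small part of the full log2 range, which was 9.10 for Hoxb13, 7.56 for Hoxd13 and 6.44 for Hoxb6. The limit of 0.5 was not scaled to a gene's spread, so genes with wide ranges meet it more easily.

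The sets of the 5 genes nested in one another. All 27 libraries high in Hoxb6 were high in Hoxb8, with 1 further library high in Hoxb8 alone. All 27 were in the low set of Hoxd13, and 26 of them in the low set of Hoxb13. All 15 libraries low in Hoxa13 were high in Hoxb6 and low in both Hoxb13 and Hoxd13. Hoxb13 and Hoxd13 were both in the high set in 51 libraries, both in the low set in 35 and apart in the remaining 11. High Hoxb6 and high Hoxd13 never occurred in the same library, and low Hoxa13 was found nowhere outside the high Hoxb6 set.

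The 2 ends of this order are shown by a pair of ampicillin libraries. Ampicillin-IV replicate 5 held Hoxb13 and Hoxd13 at 0, Hoxa13 at 1.48 TPM, Hoxb6 at 122 TPM and Hoxb8 at 45.9 TPM. In the same library Osr2, a transcription factor gene named here as a proximal colon marker, stood at 151 TPM, and Atp12a, a proton and potassium pump of the distal colon, at 1.73 TPM. Ampicillin-IP replicate 2 held the highest Hoxb13, 549 TPM, with Hoxa13 at 72.1 TPM, Hoxb6 at 2.47 TPM and Hoxb8 at 0.300 TPM. There Osr2 stood at 0.609 TPM and Atp12a at 892 TPM. Both mice had ampicillin, by different routes, and Hoxb6 and Hoxb8 were high and Hoxb13 and Hoxa13 low in the first library, with the reverse in the second.

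**Figure D2:**
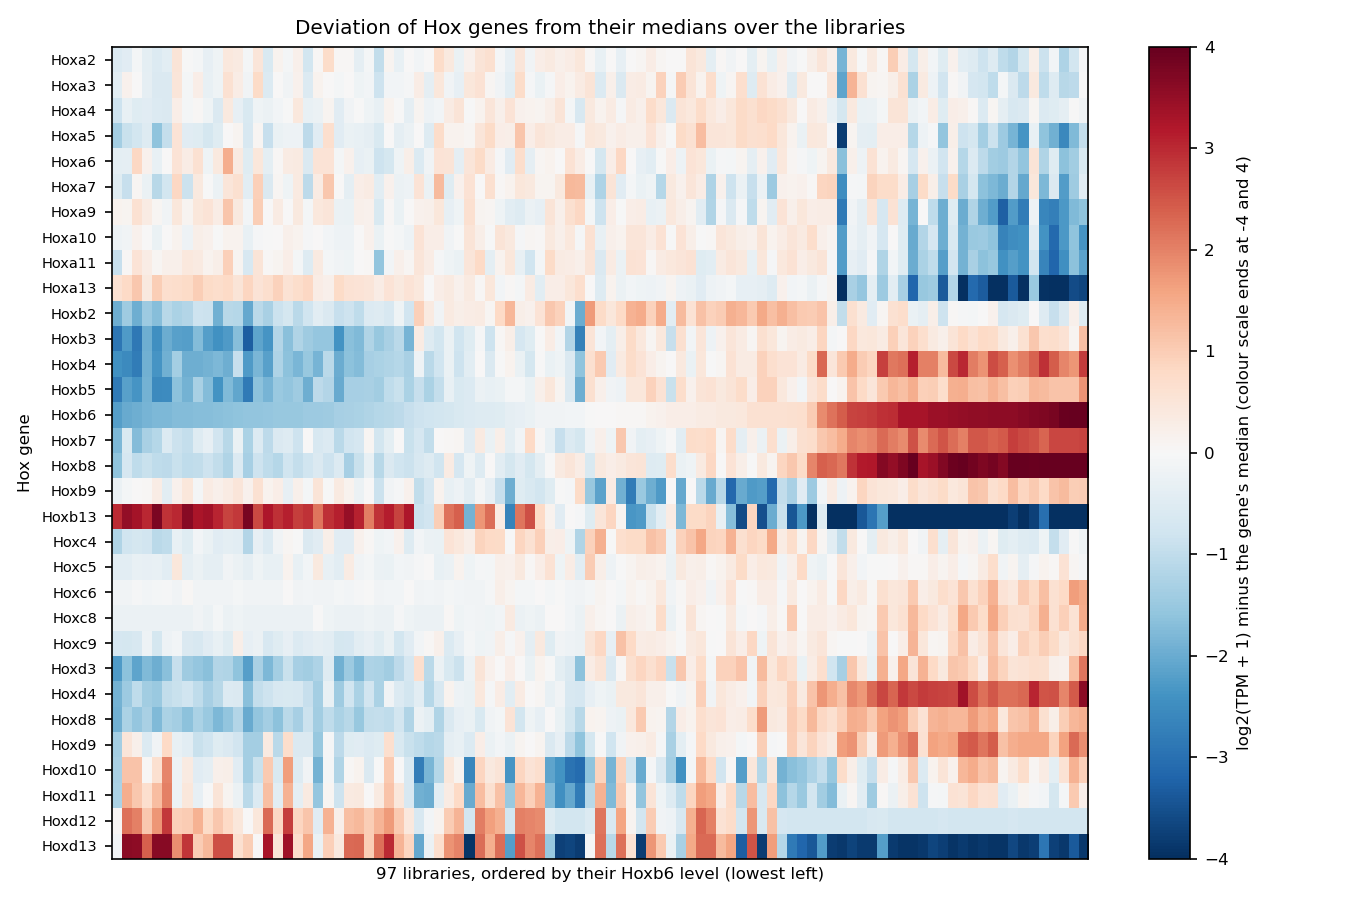
Hox genes (rows, by cluster and number) in each of the 97 libraries (columns, in order of Hoxb6 level), as the colour of log2(TPM + 1) minus the median of that gene. Toward the right, where 27 libraries lie above the Hoxb6 gap, Hoxb4 to Hoxb8 are above their medians and Hoxb13 and Hoxd13 below theirs, and the lowest Hoxa9 to Hoxa13 values gather there.

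Co-variation was first measured between the 28 members without 2 sets, over 97 libraries, as Pearson's r and Spearman's rho of log2(TPM + 1). All values of 1 library share its TPM total, so the points are not free of each other. Of 378 pairs, 277 passed an adjusted permutation p under 0.05 for r, 174 of them positive and 103 negative. The share over pairs of all genes is not at hand, so the counts of pairs here have no background. An r of 0.7 or more was reached by 65 pairs, 30 of the 91 within a cluster and 35 of the 287 across clusters, and 6 pairs lay at or below -0.7. The median r was 0.59 within clusters and 0.01 across them. Sharing a paralog number went with little: over 24 such pairs the median r was 0.14. Within single clusters the median was 0.65 in Hoxb, 0.61 in Hoxa, 0.38 in Hoxc and 0.35 in Hoxd.

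The highest pairs were Hoxb3 with Hoxb5 (r = 0.95, rho = 0.93), Hoxb4 with Hoxd4 (r = 0.94, rho = 0.94) and Hoxa10 with Hoxa11 (r = 0.94, rho = 0.84). Each had an adjusted permutation p of 2.2e-05 for r, the smallest that 100000 permutations allow among 378 pairs. Leaving out the 2 libraries farthest from the median gave r of 0.94, 0.94 and 0.93. With the means of the 18 groups removed, r was 0.96, 0.95 and 0.95, so the relation was as strong among libraries of the same treatment. The most opposed pairs were Hoxa9 with Hoxc6 (r = -0.77), Hoxa10 with Hoxc6 (r = -0.75) and Hoxa11 with Hoxb7 (r = -0.74), with adjusted permutation p again at 2.2e-05.

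Neighbours on the chromosome moved together more often than not. Of 22 neighbouring pairs, 16 had an r of 0.7 or more, and the median r was 0.76. In Hoxa these were Hoxa2 with Hoxa3 (0.74), Hoxa4 with Hoxa5 (0.73), Hoxa6 with Hoxa7 (0.77), Hoxa7 with Hoxa9 (0.78), Hoxa9 with Hoxa10 (0.88) and Hoxa10 with Hoxa11 (0.94). In Hoxb they were Hoxb2 with Hoxb3 (0.75), Hoxb3 with Hoxb4 (0.90) and Hoxb4 with Hoxb5 (0.94). In Hoxd they were Hoxd3 with Hoxd4 (0.78), Hoxd4 with Hoxd8 (0.88), Hoxd8 with Hoxd9 (0.80), Hoxd10 with Hoxd11 (0.91) and Hoxd11 with Hoxd12 (0.71). Hoxc gave Hoxc6 with Hoxc8 (0.87) and Hoxc8 with Hoxc9 (0.73). Overlapping gene models, named above, touch 3 of these pairs: Hoxb3 with Hoxb4, Hoxd3 with Hoxd4 and Hoxd10 with Hoxd11.

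The remaining neighbours were looser, among them Hoxa5 with Hoxa6 (0.67), Hoxd9 with Hoxd10 (0.57), Hoxc4 with Hoxc5 (0.48), Hoxa3 with Hoxa4 (0.48) and Hoxc5 with Hoxc6 (0.27). The last had an adjusted permutation p of 0.0126 for r. Hoxc5 and Hoxc6 are low in this tissue, with medians of 0.331 and 0.110 TPM. Membership of 1 cluster did not make all members move one way: Hoxb2 and Hoxb9, which lie on either side of the central Hoxb genes, had an r of -0.64.

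For the 5 members with 2 sets no pooled r is given, by a rule for genes with separate sets of libraries. How far the step between sets would shape a pooled r was not tested. Each set is cut on the gene's own level, which narrows its range there. Relations were computed in each set alone, 320 in all, of which 195 passed an adjusted permutation p under 0.05 (104 positive, 91 negative). No share over all genes is at hand for this count. Among the 70 libraries below the Hoxb6 gap, Hoxb6 rose with Hoxb4 (r = 0.92, rho = 0.91) and Hoxb5 (r = 0.91) and was opposed to Hoxa13 (r = -0.86, rho = -0.86). Among the 27 above the gap it followed Hoxb8 (r = 0.91, rho = 0.87) and Hoxb7 (r = 0.90, rho = 0.86) and was opposed to Hoxa11 (r = -0.68, rho = -0.70) and Hoxa10 (r = -0.66, rho = -0.71). Below the gap Hoxa10 rose with it instead (r = 0.57, rho = 0.54, adjusted permutation p = 3.72e-05), and Hoxa11 had an r of 0.16 that missed the threshold (adjusted permutation p = 0.261). The central Hoxb gene was thus graded inside each set as well as stepped between them. Its relation to Hoxb9, the next gene toward the posterior end after Hoxb8, had opposite signs too, -0.69 below the gap and 0.78 above it. The differences between the sets were not tested.

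Hoxb13 behaved likewise among the 59 libraries above its gap, where it was opposed to Hoxb6 (r = -0.83, rho = -0.82) and followed Hoxa13 (r = 0.71, rho = 0.77). In the 38 libraries below its gap it followed Hoxd13 (r = 0.65, rho = 0.68). Hoxd13, above its gap in 54 libraries, followed its neighbours in the cluster: Hoxd10 (r = 0.91, rho = 0.89), Hoxd11 (0.85), Hoxd12 (0.84) and Hoxd9 (0.75). Its r with Hoxb13 in those libraries was 0.29, with an adjusted permutation p of 0.0569 that missed the threshold. In the 43 libraries below the gap the sign for Hoxd10 turned to -0.46 (rho = -0.51, adjusted permutation p = 0.0038), while Hoxd12 kept an r of 0.62. Hoxa13 among its 82 high libraries was opposed to Hoxb4 (r = -0.89, rho = -0.91) and followed Hoxa9 (r = 0.49). Leaving out the 2 farthest libraries changed the larger values little, for example to -0.90 for Hoxa13 with Hoxb4 and to 0.89 for Hoxd13 with Hoxd10. Above the Hoxb6 gap the opposed values shrank more, to -0.54 for Hoxa11 and -0.55 for Hoxa10.

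Levels of other tissue components moved with some members. Scores were the mean log2(TPM + 1) of a marker list, and 342 relations between members and scores were computed, of which 203 passed an adjusted permutation p under 0.05. How many relations of other genes with these scores would pass is not at hand. Hoxb2, active in hindbrain and neural crest, followed the smooth muscle score (r = 0.89, rho = 0.88) and the score of enteric neurons and glia (r = 0.93, rho = 0.94) and was opposed to colon epithelium (r = -0.80, rho = -0.86). Hoxc4 followed enteric neurons and glia (r = 0.90), and Hoxa10 and Hoxa5 followed fibroblasts (r = 0.80 and 0.77). Hoxb9 stood on the other side, with an r of 0.87 (rho = 0.68) with epithelium and -0.75 with smooth muscle. Each had an adjusted permutation p of 3.32e-05 for r, the smallest possible among these relations. Hoxd12 had an r of 0.51 with the B cell score. Whether tissue makeup accounts for any part of these members' spread was not tested.

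The small intestine list also moved with some members. Hoxd4 had an r of 0.80 with its score and Hoxb7 one of 0.79, with lower rank values (rho = 0.58 and 0.57), and Hoxa10 one of -0.73 (rho = -0.51). Of the 12 listed genes 10 are in the table, and their summed level ran from 28.1 to 3051 TPM. Among them Fabp1 had a median of 0.0592 TPM and reached 2.83 TPM, and Lct, the lactase gene, reached 4.53 TPM. Others of the list stood far higher: Fabp2 reached 1159 TPM (median 78.6) and Apob 1069 TPM (median 81.3). Apoa1 reached 335 TPM, Fabp6 107 TPM, Apoa4 61.9 TPM and Mttp 30.7 TPM. Reg3b and Slc10a2, which can also be made outside the small intestine, reached 2120 and 680 TPM. In Ampicillin-IV replicate 5, 1 of the 4 libraries with Hoxb13 at 0, Reg3b stood at 694 TPM.

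**Figure D3:**
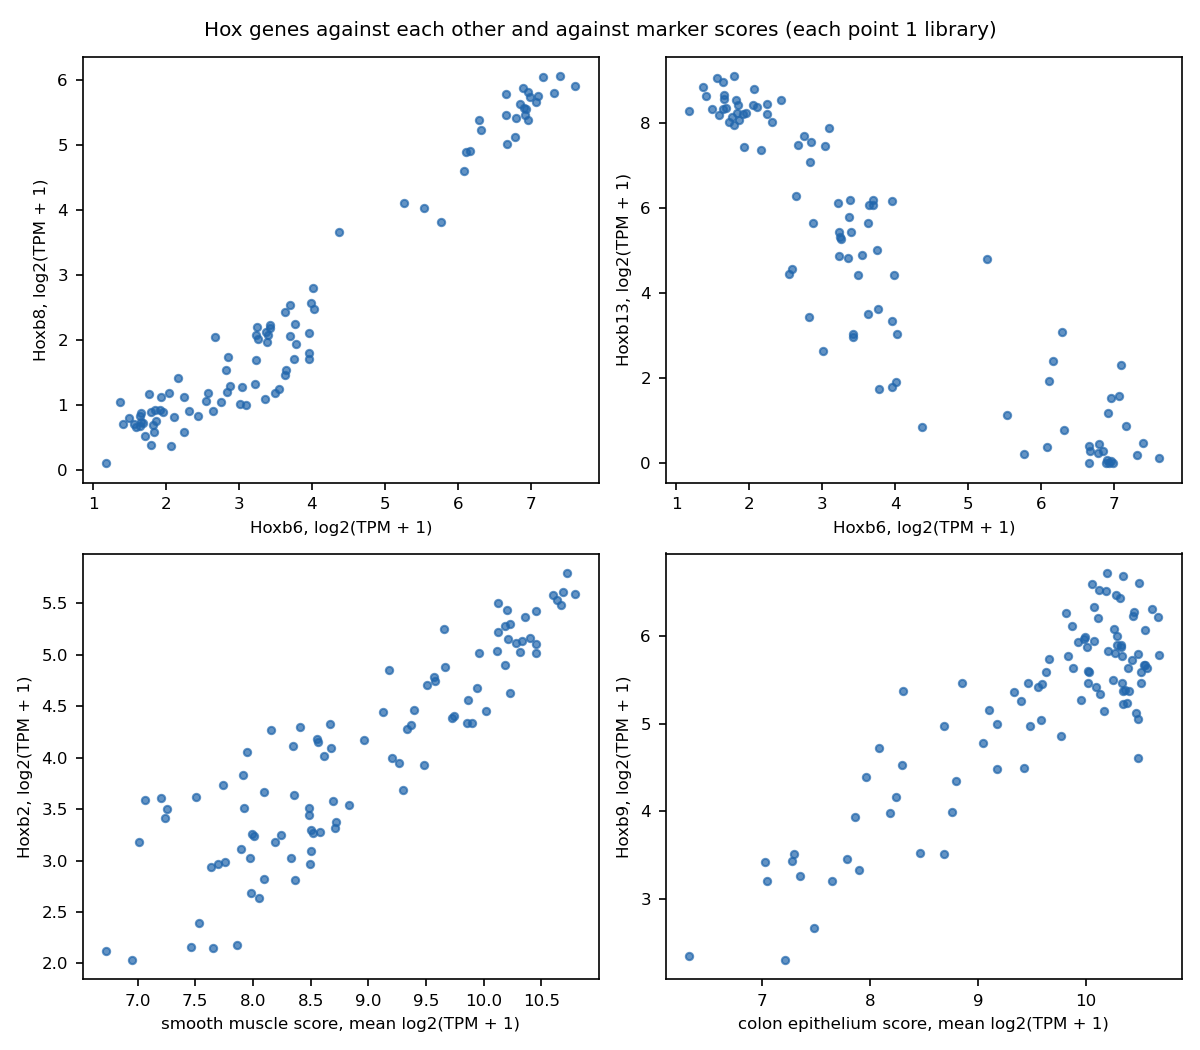
Each point is 1 of the 97 libraries, with values as log2(TPM + 1): Hoxb8 (top left) and Hoxb13 (top right) against Hoxb6, Hoxb2 against the smooth muscle score (bottom left) and Hoxb9 against the colon epithelium score (bottom right). In the top panels the 70 libraries below the Hoxb6 gap and the 27 above it stand apart, and in the bottom panels r is 0.89 and 0.87.

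Genes that differ along the colon were followed inside the sets, in 650 relations, of which 321 passed an adjusted permutation p under 0.05. In the 59 libraries above its gap, Hoxb13 followed Atp12a (r = 0.91, rho = 0.87), Insl5, a hormone of distal enteroendocrine cells (r = 0.90, rho = 0.82), and Fxyd4, a sodium pump regulator (r = 0.87, rho = 0.85). It was opposed to Aldh1a2, which makes retinoic acid (r = -0.90, rho = -0.87), and in the 38 libraries below the gap the sign was positive (r = 0.64). Of the 14 listed genes measured, 11 rose and 1 fell with Hoxb13 above its gap by that test. With Hoxb6 below its gap 2 rose and 11 fell. The share of all genes that rise or fall in this way is not at hand, so these counts have no background. In the 27 libraries above the Hoxb6 gap, Osr2 followed Hoxb6 (r = 0.81, rho = 0.76), falling to an r of 0.63 without the 2 farthest libraries. The list was written with results of these data known.

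The ParaHox genes Cdx1 and Cdx2 are regulators of intestinal identity, and Evx2 lies beside Hoxd13. Evx2 followed Hoxd13 in both sets, with an r of 0.89 (rho = 0.87) above the gap and 0.77 (rho = 0.73) below it. Cdx1, at a median of 235 TPM, was opposed to Hoxb6 below the gap (r = -0.81, rho = -0.84) and followed it above (r = 0.60, rho = 0.64). Cdx2, at a median of 94.3 TPM, gave an r of 0.05 below the gap (adjusted permutation p = 0.762) and 0.51 above it. Among cofactors that bind DNA with Hox proteins, all 9 rose with Hoxb6 in the 70 libraries below its gap, led by Pbx3 (r = 0.81) and Meis1 (r = 0.80). Above the gap 4 of the 9 were opposed to it and 1 followed it. No share over all genes is at hand for these counts, so they are not a result about cofactors. Gdf11, the signal that sets the trunk-to-tail Hox switch in the embryo, had an r of 0.80 with Hoxb6 below the gap and -0.35 above it, the latter with an adjusted permutation p of 0.129.

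Outside the Hox family, the genes most like Hoxb13 were Tgm3, Atp12a, Sval1, Ly6g, Mptx1, Nxpe4, B3gnt5 and Pla2g4f, in the order of Pearson's r over the 97 libraries. Because Hoxb13 has 2 sets, r is given in each: Tgm3, a transglutaminase, had 0.89 over the 38 low and 0.93 over the 59 high libraries. For Mptx1, a pentraxin, the values were 0.92 and 0.80. Tgm3 ranged from 0.909 to 2452 TPM. For Hoxb6, an addition made after its values were seen, the 8 were Grin3a, Nts, Cyp4b1, Gabre, Prkg2, Acaa1b, Slc35d1 and Osr2. Grin3a had an r of 0.90 over the 70 low and 0.74 over the 27 high libraries. Being chosen for likeness, these genes carry no test.

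The sets of libraries were spread over the treatment groups. Every group except Vancomycin-IP (4 libraries) and Vancomycin-IV (5 libraries) held at least 1 library high in Hoxb6. Mix-PO held 4 of 6 and Mix-IP 3 of 6, and all other groups held 1 or 2. Libraries low in Hoxa13 numbered 3 of 6 in Mix-PO, 3 of 6 in Mix-IP and 2 of 6 in Ampicillin-IV. There was 1 each in Neomycin-PO, Neomycin-IP, Neomycin-IV, Ampicillin-IP, Metronidazole-IP, Metronidazole-IV and PBS-IV, and none in the other groups. High Hoxd13 was found in 5 of 6 libraries of Metronidazole-PO, Neomycin-PO and Neomycin-IP, in 3 of 6 of PBS-PO and in 1 of 6 of Mix-PO. The PBS groups held both sets too: PBS-PO had 1 of 6 libraries high in Hoxb6, PBS-IP 1 of 4 and PBS-IV 2 of 5.

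**Figure D4:**
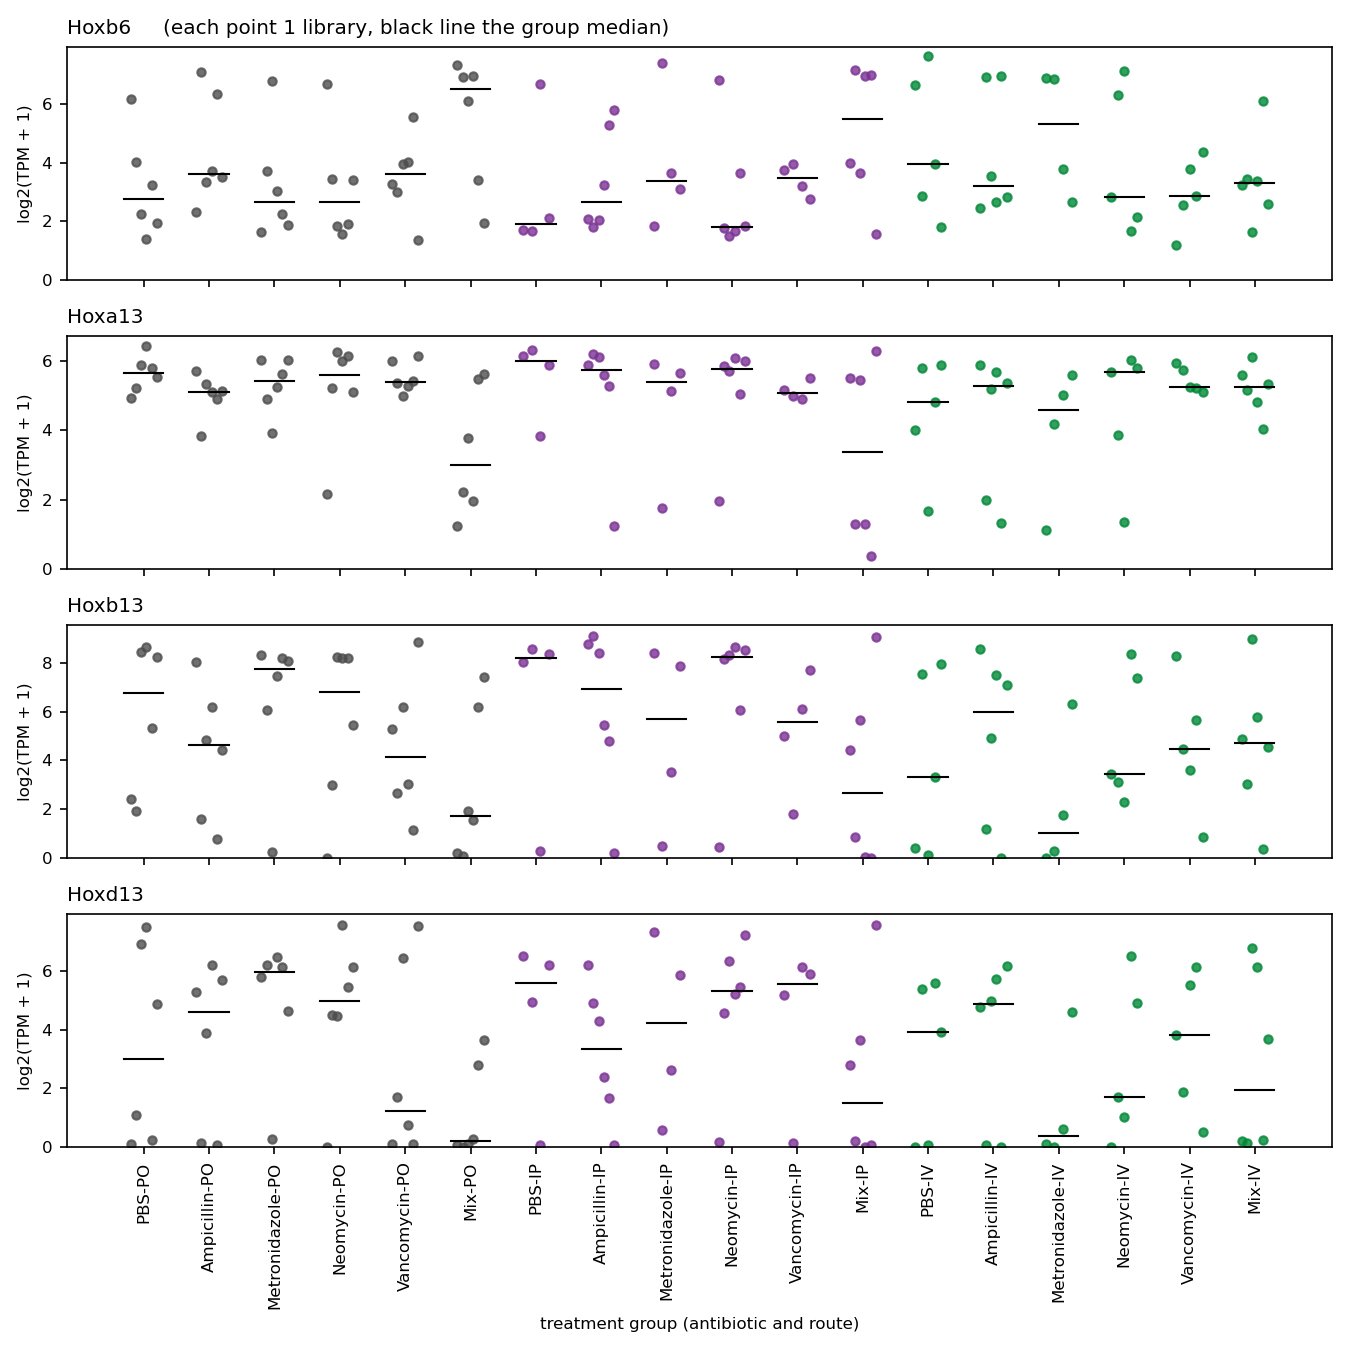
Levels of Hoxb6, Hoxa13, Hoxb13 and Hoxd13 (panels) in each of the 18 groups as log2(TPM + 1), 1 point per library, coloured by route, with a black line at the group median. High and low libraries occur together in most groups, PBS groups included, and 4 of 6 Mix-PO libraries are in the high Hoxb6 set.

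Group medians showed the same. That of Hoxb6 ran from 2.47 TPM in Neomycin-IP to 93.4 TPM in Mix-PO, and that of Hoxb8 from 0.714 TPM in PBS-IP to 37.4 TPM in Mix-PO. For Hoxa13 the lowest median was 8.14 TPM in Mix-PO and the highest 63.0 TPM in PBS-IP. Hoxb13 ran from 1.28 TPM in Metronidazole-IV to 302 TPM in Neomycin-IP and Hoxd13 from 0.143 TPM in Mix-PO to 61.7 TPM in Metronidazole-PO. The extremes of group medians were thus often a mix group at one end. Within Neomycin-IP, however, Hoxb13 went from 0.362 to 404 TPM, and within Metronidazole-IV from 0 to 77.6 TPM. The spread inside a group was of the size of the spread over groups.

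No Hox gene was called in any of the 15 comparisons of antibiotic against PBS by the same route, with limma at a Benjamini-Hochberg adjusted p under 0.05 over 17083 genes. The share of all genes called was 0.0702% in Ampicillin-PO, 0% in Metronidazole-PO, 0.0176% in Neomycin-PO, 0.176% in Vancomycin-PO and 0.252% in Mix-PO. It was 0.492% in Ampicillin-IP, 0% in Metronidazole-IP, 0.603% in Neomycin-IP, 19.0% in Vancomycin-IP and 0.275% in Mix-IP. By vein it was 0.0820% in Ampicillin-IV, 0% in Metronidazole-IV, 0.544% in Neomycin-IV, 0.258% in Vancomycin-IV and 0% in Mix-IV. A count of 0 of 33 members is near the background in 14 of the comparisons, and in Vancomycin-IP, with 19.0% of all genes called, it is under it. At an unadjusted p under 0.05 the members numbered 10 in Mix-PO (10.9% of all genes), 3 in Neomycin-PO (5.35%), 2 in Ampicillin-PO (15.9%), 0 in Metronidazole-PO (3.25%) and 0 in Vancomycin-PO (6.05%). By IP injection they numbered 6 in Mix-IP (14.6%), 2 in Vancomycin-IP (37.6%), 1 in Ampicillin-IP (9.86%), 1 in Metronidazole-IP (7.15%) and 0 in Neomycin-IP (5.81%). By IV injection there was 1 in Neomycin-IV (7.24%) and 0 in Ampicillin-IV (6.29%), Metronidazole-IV (1.48%), Vancomycin-IV (13.6%) and Mix-IV (5.60%). For 33 tested members, 10 in Mix-PO is above the share over all genes, 6 in Mix-IP is near it and 2 in Vancomycin-IP is under it. The members co-vary, so these are not independent calls.

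The mix by mouth had the most members at an unadjusted p under 0.05. Of the 10, 8 were lower, all in Hoxa (Hoxa2, Hoxa5, Hoxa6, Hoxa7, Hoxa9, Hoxa10, Hoxa11 and Hoxa13), and 2 were higher, Hoxb6 and Hoxb7. Among all genes, 3.75% were lower and 7.15% higher by that rule. In Mix-PO Hoxa13 stood at 1.35, 2.89, 3.62, 12.7, 43.0 and 48.2 TPM. In PBS-PO it stood at 29.2, 36.0, 44.9, 53.9, 57.8 and 84.0 TPM. The 4 lowest Mix-PO libraries lay under all PBS-PO libraries and the other 2 among them. The log2 difference was -2.24 (SE 0.86; 18.6 ± 21.3 against 51.0 ± 19.4 TPM, SD, n = 6 each), with an adjusted limma p of 0.271.

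Hoxb6 had the mirror pattern. In Mix-PO it stood at 2.80, 9.49, 68.1, 119, 123 and 159 TPM, and in PBS-PO at 1.66, 2.88, 3.74, 8.48, 15.2 and 71.2 TPM. The 4 Mix-PO libraries with Hoxb6 at 68.1 TPM or more are the 4 with the lowest Hoxa13, and the ranges of the groups overlap. The log2 difference was 2.26 (SE 1.12; 80.3 ± 64.4 against 17.2 ± 26.9 TPM, SD, n = 6 each), with an adjusted limma p of 0.451. Hoxb9 stood at 53.8 to 104 TPM in Mix-PO and 16.97 to 63.0 TPM in PBS-PO, with a log2 difference of 1.04 (SE 0.55) and an adjusted limma p of 0.493. With the colon epithelium score as a covariate, Hoxb9 passed in this comparison, as did 1.79% of all genes. Hoxd13 stood at 11.6 TPM or less in all 6 Mix-PO libraries and at 0.0633 to 179 TPM in PBS-PO.

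After the mix by IP injection no member reached the threshold either. All 6 members at an unadjusted p under 0.05 were lower (Hoxa6, Hoxa7, Hoxa9, Hoxa10, Hoxa11 and Hoxa13), against 8.56% of all genes lower by that rule. Hoxa9 stood at 4.04, 6.02, 6.21, 50.5, 64.3 and 69.6 TPM in Mix-IP and at 47.3, 54.8, 65.5 and 104 TPM in PBS-IP. The 3 low Mix-IP libraries lay far under PBS-IP and the other 3 inside its range. Its log2 difference was -1.73 (SE 0.59), with an adjusted limma p of 0.155. Hoxa13 stood at 0.302, 1.45, 1.47, 42.4, 44.0 and 77.3 TPM in Mix-IP and at 13.1, 57.4, 68.5 and 78.6 TPM in PBS-IP. After IV injection of the mix no member had an unadjusted p under 0.05, and 0 of 6 libraries were low in Hoxa13. The summed small intestine markers were 455 to 2359 TPM in Mix-PO against 89.95 to 1372 TPM in PBS-PO, and 156 to 2407 TPM in Mix-IP against 96.3 to 934 TPM in PBS-IP, with 0 of their genes called. Fibroblast genes had a median log2 difference of -0.34 in Mix-PO and -0.65 in Mix-IP, against 0.027 and -0.026 over all genes, with 0 of 14 called in each. Their summed level was 510 to 2943 TPM (median 1625) in Mix-PO against 1029 to 3648 TPM (median 1665) in PBS-PO. It was 345 to 3063 TPM (median 741) in Mix-IP against 914 to 1831 TPM (median 1156) in PBS-IP, and none of the 14 genes was at 0 in any of these libraries. The part of either list in the Hox values was not tested.

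**Figure D5:**
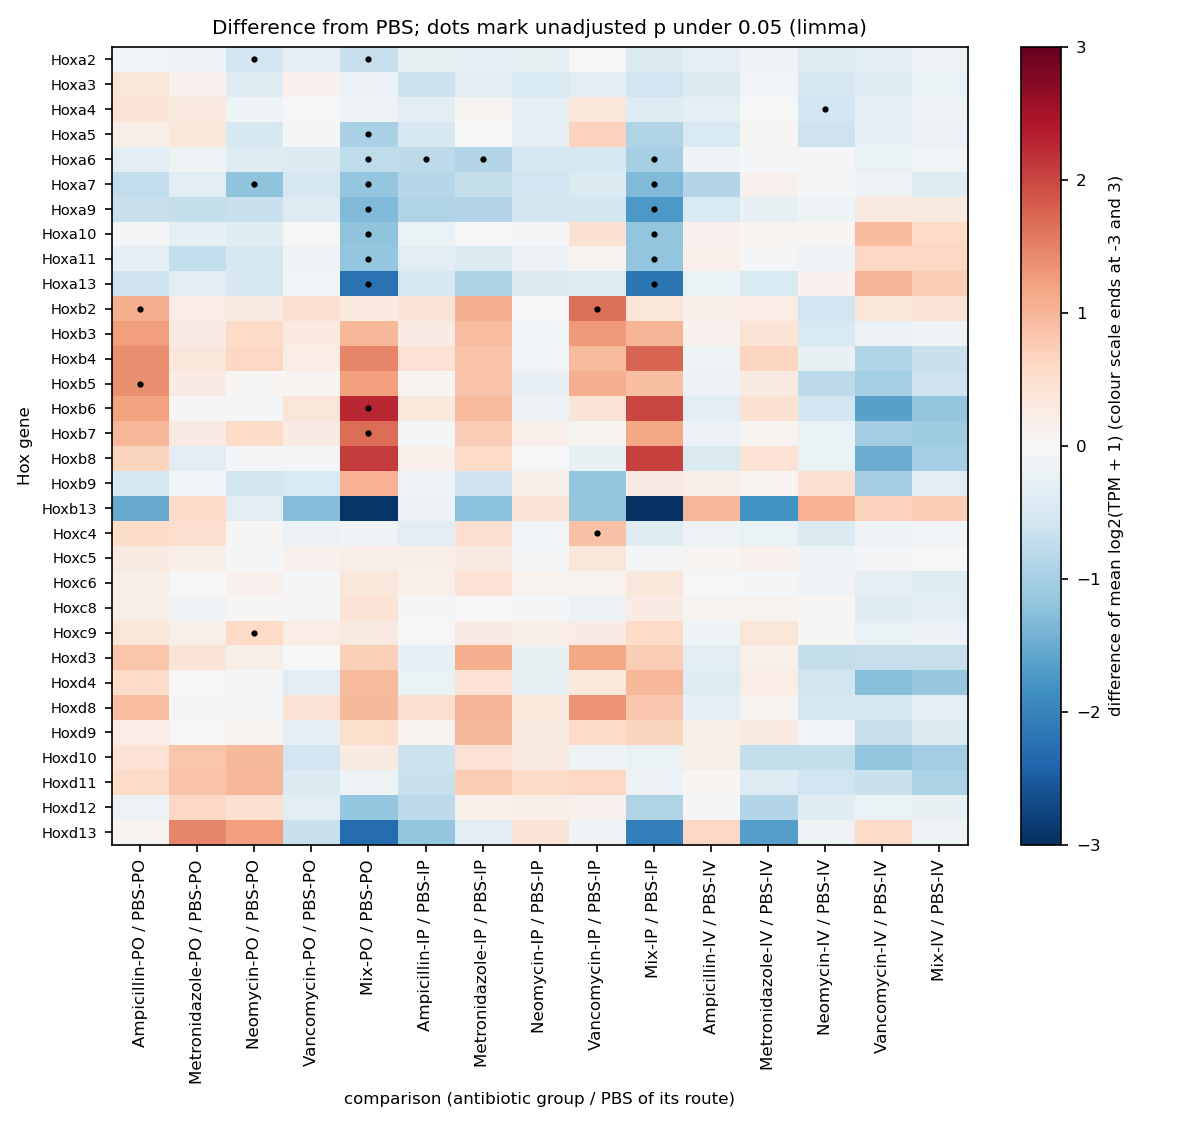
Difference of mean log2(TPM + 1) between antibiotic and PBS by the same route, as a colour that ends at -3 and 3, for tested Hox genes (rows) and comparison (columns). Dots mark an unadjusted limma p under 0.05: they gather on the Hoxa genes in Mix-PO (8 lower) and Mix-IP (6 lower), and no gene passed after adjustment.

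In Vancomycin-IP the nearest member to the threshold was Hoxb2. It stood at 19.2, 23.7, 33.7 and 47.8 TPM against 6.90, 7.52, 8.61 and 12.3 TPM in PBS-IP, so the groups did not overlap. The log2 difference was 1.65 (SE 0.65; 31.1 ± 12.7 against 8.83 ± 2.41 TPM, SD, n = 4 each), with an adjusted limma p of 0.0593. Hoxc4 stood at 2.73, 3.76, 4.10 and 4.42 TPM against 1.14, 1.55, 1.57 and 2.13 TPM, again without overlap, with a log2 difference of 0.87 (SE 0.43) and an adjusted limma p of 0.123. These 2 were the members at an unadjusted p under 0.05, both higher, whereas 26.6% of all genes were higher by that rule. Beside them, 16 of 18 smooth muscle genes were called higher (median log2 difference 2.16, summed level 51615 to 87346 against 10418 to 18807 TPM). Also called were 7 of 14 fibroblast genes and 5 of 14 genes of enteric neurons and glia, all higher, and 3 of 16 epithelial genes, lower. At an adjusted limma p under 0.05, 19.0% of all genes were called in either direction, so the epithelial count is near that share. With the smooth muscle score as a covariate the Hoxb2 difference was -0.065. Hoxb2 passed at adjusted p of 0.0433 without Vancomycin-IP replicate 4 and 0.0455 without Vancomycin-IV replicate 1.

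Set against the mean of the other 17 groups, no member was called in any of the 18 groups. The share of all genes called there was 0.0234% for PBS-PO, 0.0644% for Ampicillin-PO, 0.123% for Metronidazole-PO, 0.0176% for Neomycin-PO, 0.0351% for Vancomycin-PO and 1.62% for Mix-PO. By IP injection it was 0.310% for PBS-IP, 0.328% for Ampicillin-IP, 0% for Metronidazole-IP, 1.02% for Neomycin-IP, 4.69% for Vancomycin-IP and 1.87% for Mix-IP. By IV injection it was 0.0117% for PBS-IV, 0.0585% for Ampicillin-IV, 0.0117% for Metronidazole-IV, 0.773% for Neomycin-IV, 0.0293% for Vancomycin-IV and 0.0527% for Mix-IV. At an unadjusted p under 0.05 the members numbered 10 in Mix-PO (4 higher against 11.9% of all genes and 6 lower against 4.37%, or 16.2% in either direction), 9 in Mix-IP (all lower, against 20.1% of all genes lower and 25.1% in either direction) and 0 to 2 in each other group. For those 16 groups the share of all genes ran from 3.92% in Metronidazole-IP to 30.1% in Vancomycin-IP. The 9 in Mix-IP are thus nearer to the share over all genes than the 6 lower in Mix-PO. The nearest were Hoxa10 in Mix-IP (log2 difference -1.17, SE 0.34, adjusted limma p of 0.053) and Hoxb9 in Mix-PO (1.22, SE 0.40, adjusted limma p of 0.0947). In the F test over the 18 groups 0 of 33 members and 13.1% of all genes were called, with 2 members and 34.7% of all genes at an unadjusted p under 0.05. The lowest adjusted limma p was 0.0646, for Hoxa4. By median, 18.4% of a member's variance lay between groups (lowest 8.99%, highest 32.2%), against 24.5% over all genes. Most of the Hox variation thus lay inside groups, as did that of all genes by median. Sorting 97 libraries into 18 groups puts part of the variance between groups even without any effect, so 18.4% is not a share due to treatment.

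These counts depended on how libraries were weighted. With limma's array weights, which give less weight to libraries far from their group, 9 members were called in Mix-PO (9.52% of all genes), 25 in Mix-IP (36.7%) and 10 in Vancomycin-IP (57.9%) against PBS. In the F test of that fit 30 members and 91.4% of all genes were called. Testing whether an antibiotic's effect differed between the 3 routes, limma called 0 members for each of the 5 treatments. At an unadjusted p under 0.05 there were 5 members for the mix (2.38% of all genes), 1 for ampicillin (1.41%) and 0 for neomycin (2.44%), vancomycin (6.60%) and metronidazole (0.913%). All genes called came to 0.0878% for neomycin and 0% for the other 4 treatments.

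Genes that work with or upstream of Hox genes were called in few comparisons. Of the 9 cofactors, 6 rose in Vancomycin-IP (among them Meis2 by 2.47 on the log2 scale, Pknox1 by 1.71, Pbx3 by 1.68, Meis1 by 1.57 and Pknox2 by 1.19), with a list median of 1.19 against 0.11 over all genes and 19.0% of all genes called. Of the 17 Polycomb and trithorax genes, which hold Hox genes silent or active, 2 rose there, Bmi1 by 1.47 and Ezh1 by 0.54. Of 11 genes of retinoic acid and Gdf11 signalling, 4 rose there (Rarb, Gdf11, Aldh1a3 and Tgfbr1), and Acvr2a rose by 0.72 in Vancomycin-IV. The muscle genes named above rose in the same Vancomycin-IP libraries. In the fit without 12 libraries whose columns stand outside the alphabetical order of the table, which leaves 1 Vancomycin-IP library against 2 of PBS-IP, 0.0293% of all genes were called. In Mix-PO, Aqp8, a water channel of colon epithelium, fell by 5.34 on the log2 scale (SE 1.205, adjusted limma p of 0.0237). It followed Hoxa13 in the 82 libraries above that gene's gap (r = 0.68, rho = 0.72).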

How the data were processed

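The authors deposited gene expression as TPM, made from single-end poly(A) RNA-seq reads with Trim Galore 0.6.2, cutadapt 3.5 and Salmon (version not given) against GRCm39, per the submitters' processing notes. Strand is not stated and read depth is unknown.

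Values were used as log2(TPM + 1), a scale that understates changes of low genes. Genes with 1 TPM or more in at least 4 libraries were kept, 17083 of 20457. One model of 18 groups was fitted with limma 3.58.1 (R 4.3.3, trend and robust), checked on simulated data with 200 changed genes. Calls needed a Benjamini-Hochberg adjusted p under 0.05 within a comparison. Correlations were tested with 100000 two-sided permutations of libraries (Python 3.11.15, numpy 2.4.6) and adjusted within each family.

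Members, marker lists and rules were chosen with earlier results of these data known. Named members were those called, the 8 with the largest SD, the 4 with the highest median, the 2 steadiest, neighbours, and the pairs with extreme r. The 2-set rule, relations within sets and the genes most like Hoxb6 were added after the values were seen, as were the members nearest to a threshold. Alternatives were other pseudocounts, filters, quantile normalization, array weights, score covariates, blocks, fits of the compared groups alone, and leaving out libraries, among them 12 whose columns stand after the others in the table. Some genes that enter the counts are not reported here by name.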

Additional observations from a re-analysis of the deposited data

Results flagged for a closer look

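In groups of 4 to 6 libraries, 14 Hox genes were looked at for 1 library that stands far from the others of its group, by the gap to its nearest neighbour relative to the range (Dixon's 95% limit). This was met in 36 of 252 gene and group combinations, where chance gives about 1 in 20. The genes are not independent, so a library tends to be picked out by several at once.

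Most of these values came from 7 libraries in the high Hoxb6 set. Neomycin-IP replicate 1 had Hoxb13 at 0.362 TPM, Hoxb8 at 41.7, Hoxa13 at 2.89, Hoxd4 at 36.9, Hoxa9 at 11.6 and Hoxa10 at 12.7 TPM. Neomycin-PO replicate 1 had Hoxb6 at 100.2, Hoxb8 at 53.7, Hoxa13 at 3.43, Hoxa9 at 12.2 and Hoxa10 at 12.2 TPM. The control library PBS-IP replicate 3 had Hoxb13 at 0.221, Hoxb6 at 100.9, Hoxb8 at 31.2, Hoxb4 at 119.5 and Hoxa10 at 22.6 TPM. In Metronidazole-PO replicate 3, Hoxb13 stood at 0.178, Hoxd13 at 0.196 and Hoxb8 at 33.8 TPM. In Ampicillin-IP replicate 6, Hoxa13 stood at 1.36, Hoxa9 at 5.82 and Hoxa10 at 10.3 TPM. Metronidazole-IP replicate 2 had Hoxb8 at 65.2 TPM, and PBS-IV replicate 3 had Hoxa10 at 9.21 TPM. Osr2 was at 165.9, 183.0, 81.4, 102.5, 87.8, 145.5 and 201.0 TPM in these 7 libraries, in the order given.

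The other values came from libraries with low Hoxb6. Vancomycin-IP replicate 2 had Hoxd13 at 0.0947, Hoxb7 at 2.73 and Hoxa7 at 46.7 TPM. Metronidazole-IV replicate 4 had Hoxd13 at 23.4 TPM. Hoxb2 stood at 42.2 TPM and Hoxb9 at 9.85 TPM in Metronidazole-IV replicate 3, which had a colon epithelium score of 7.28. Hoxb2 stood at 24.6 and Hoxa4 at 2.97 TPM in Neomycin-IP replicate 5, and at 3.46 and 0.689 TPM in Vancomycin-IV replicate 1. Hoxa4 stood at 3.63 TPM in Mix-IP replicate 1, and Hoxb9 at 16.97 TPM in PBS-PO replicate 2. The smooth muscle score was 10.2, 9.94, 7.46, 10.1 and 10.2 in these last 5 libraries, in the order given.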

How the results depend on the processing

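The counts of called Hox genes, 0 in each comparison, depended on the weighting of libraries. The share of all genes called by the same fit stands in brackets. With array weights, calls against PBS numbered 1 in Ampicillin-PO (18.1%), 9 in Mix-PO (9.52%), 10 in Vancomycin-IP (57.9%), 25 in Mix-IP (36.7%) and 2 in Vancomycin-IV (31.1%). Against the mean of the other 17 groups that fit called 2 in Ampicillin-PO (19.3%), 17 in Mix-PO (22.1%), 12 in PBS-IP (38.9%), 15 in Ampicillin-IP (37.6%), 13 in Neomycin-IP (33.5%), 6 in Vancomycin-IP (49.6%), 21 in Mix-IP (38.9%), 14 in Metronidazole-IV (23.5%), 4 in Vancomycin-IV (53.8%) and 3 in Mix-IV (20.8%), and the F test called 30 (91.4%). Of 33 members, the calls in Ampicillin-PO, Vancomycin-IP and Vancomycin-IV, and in Mix-IV against the other groups, were under the share of all genes. Those in PBS-IP against the other groups and in the F test with array weights were slightly under it. A pseudocount of 0.1 gave 1 call in Mix-IP against the other groups (3.16%), and a pseudocount of 10 gave 1 in Vancomycin-IP against PBS (21.7%). With the smooth muscle score as covariate there was 1 call in Mix-PO against the other groups (Hoxb9; 4.41%) and 1 in the F test (Hoxa4; 10.2%), and the Hoxb2 difference in Vancomycin-IP turned to -0.065. With the colon epithelium score there was 1 call in Mix-PO against PBS (1.79%) and 1 against the other groups (2.96%), Hoxb9 in both, 1 in Mix-IP against the other groups (Hoxa10; 5.74%) and 2 in the F test (Hoxb9 and Hoxc4; 14.4%). In both F tests the members were under the share of all genes. Without the 12 appended libraries there were 3 calls in Mix-IP against the other groups (9.81%) and 1 in the F test (11.2%). A fit of the compared groups alone gave 4 in Vancomycin-IP against PBS (30.8%). The cause was not tested for any of these.

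Leaving out each library in turn gave 0 to 7 calls for Mix-IP against the other groups (7 without Mix-IP replicate 1, with 16.3% of all genes), 0 to 2 in the F test (2 without Vancomycin-IV replicate 1, with 24.9%), 0 to 1 for Vancomycin-IP against PBS and 0 to 1 for Vancomycin-IV against the other groups, and 0 elsewhere. Over all 528 pairs of tested members, r of 0.7 or more was reached by 93 pairs, and by 91 to 98 with 1 library left out. The count of 18 highly variable members became 17 to 18 in the same way. Both ranges cover the leaving out of 1 library only. These counts under the other alternatives, score covariates among them, are not given here. With the replicate number as a block (replicate block) calls stayed at 0, and the numbers do not pair the samples: correlations of same-numbered libraries ran from -0.70 to 0.84. Quantile normalization moved the median difference of all genes by -0.17 in Vancomycin-IP against PBS, and by under 0.1 in the other 14 comparisons. Depth is unknown, so members listed at 0 are not shown to be absent.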
